A study of Mus musculus with 6 samples.

Results

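The Zbtb genes encode transcription factors with an amino-terminal BTB domain and carboxy-terminal zinc fingers, and 39 of the 21938 protein-coding genes in the GENCODE annotation of mm10 carry such a symbol once *Zbtb16* is set aside. The rule for members uses the name alone (Zbtb, digits and an optional letter) and no measured value. The locus of each gene was its body plus 50 kb on both sides of its start, and a peak belonged to a locus when its summit lay there. Chromatin accessibility was read by ATAC-seq, an assay in which a transposase inserts adapters into open DNA, in GFP-labelled astrocyte nuclei from the primary visual cortex (V1) of mice at postnatal day 21. There were 3 GR-con and 3 GR-KO libraries. All mice were GR fl/fl, carrying floxed alleles of the glucocorticoid receptor gene *Nr3c1*, and all had received an AAV2/5 vector between P0 and P1 that encoded EGFP-KASH, a nuclear envelope tag, with the 4x6T element, under the GfaABC1D promoter, which is active mainly in astrocytes. The vector of the GR-KO mice carried Cre before the T2A sequence and that of the GR-con mice carried ΔCre, which lacks recombinase activity. The loss of GR therefore depended on infection and on this promoter, and cells without Cre activity would keep the gene. Each library came from V1 of 3 to 4 pooled mice, so single animals cannot be told apart, and 50000 nuclei were sorted for it. The question asked here was which Zbtb loci gained or lost peaks when GR was deleted.

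BTB domains let these proteins pair with one another and bring in corepressor complexes, and the zinc fingers read DNA. Several members are known from cell fate decisions, others from binding methylated CpG or from guarding genome integrity. In the brain, *Zbtb20* is known from hippocampal neuron identity and from astrocyte formation, and *Zbtb18* from cortical neuron differentiation.

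The deposited lists held 179462 to 198929 peaks per library, and GR-con 3 had the longest list. The files give for each peak a summit, a fold (its signal as a ratio to the local background) and a -log10 p. They hold no read counts, so sequencing depth was unknown here and no limit of detection could be set. The strongest peak at an annotated start of *Nr3c1* stood at 7.04, 7.02 and 6.64 in GR-con 1, 2 and 3 and at 6.28, 6.27 and 5.91 in GR-KO 1, 2 and 3 (fold), lower in every GR-KO library. A peak at a start says nothing of whether the floxed part was removed, so the deletion could not be checked from these lists. All 6 astrocyte markers (*Aldh1l1*, *Aqp4*, *Slc1a2*, *Slc1a3*, *Gja1*, *Gfap*) had a peak at an annotated start in all 6 libraries, and the folds summed to 47.1 to 49.0 in GR-con and 49.2 to 52.5 in GR-KO. Of 5 neuronal markers, 4 (*Rbfox3*, *Snap25*, *Gad1*, *Gad2*) had one in all 6 libraries and *Slc17a7* in 4, with summed folds of 48.3 to 51.9 and 46.1 to 50.9. No library had a promoter peak at the oligodendrocyte genes *Mog*, *Mag* and *Mobp*, the microglial genes *Cx3cr1* and *C1qa*, or the endothelial genes *Pecam1* and *Tek*. All 6 libraries had one at *Mbp* of the oligodendrocyte list, *P2ry12* and *Tmem119* of the microglial list, and *Cldn5* and *Flt1* of the endothelial list. The summed folds of 5 oligodendrocyte markers were 5.83 to 8.06 in GR-con and 3.43 to 8.76 in GR-KO. Those of 5 microglial markers were 14.6 to 20.2 and 14.1 to 23.2, and those of 4 endothelial markers 7.76 to 9.03 and 6.96 to 9.19. Single markers separated by group inside these sums. Of all promoters, read at the gene start, 4.84% had every GR-KO fold below every GR-con fold and 9.7% had every one above. *Gad1* was at 8.26, 8.20 and 7.72 in GR-con and 6.94, 7.32 and 6.25 in GR-KO, and *Gad2* at 5.10, 4.14 and 5.07 against 3.79, 2.27 and 3.37. *Cldn5* was also lower in every GR-KO library, at 3.86, 5.27 and 3.71 against 2.68, 3.51 and 3.41. Higher in every GR-KO library were *Tmem119*, at 3.78, 4.89 and 6.42 against 7.76, 6.81 and 8.98, and *Aldh1l1*, by a narrow margin. By the site test described below, 0 sites were called in the astrocyte, oligodendrocyte and microglial marker loci (172, 60 and 60 sites), 1 of 74 was higher in the neuronal loci, and 1 of 40 was lower and 1 higher in the endothelial loci, against 0.333% lower and 0.185% higher of all sites. The lower one, in the *Cldn5* locus and nearest to the start of *Ufd1*, had folds of 19.6, 20.9 and 17.9 in GR-con and 12.6, 10.6 and 12.5 in GR-KO (adjusted p = 0.0369 from limma). At the higher ones, intervals over the site carried 18.7, 19.8 and 18.7 in GR-KO (*Slc17a7* locus) and 21.4, 20.3 and 19.4 (*Pecam1* locus). Peaks with their summit inside those sites had folds of only 0, 1.78 and 1.83, and of 2.13, 1.81 and 2.44, in GR-KO. In GR-con these were 0, 0 and 0, and 1.94, 0 and 0. Whether other cell types had a part in the Zbtb values was not tested. In pooled nuclei, fewer cells with an open site and less opening per cell cannot be told apart.

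The 39 genes lie on 15 chromosomes. Some members share a neighbourhood, so their values are not separate measurements. *Zbtb1* and *Zbtb25* are divergent neighbours with 14 shared sites, *Zbtb6* and *Zbtb26* start beside each other on the same strand and share 8 sites, *Zbtb34* and *Zbtb43* share 7, and *Zbtb8a* and *Zbtb8b* share 1.

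Sites of 400 bp were set around the summits of all 6 lists, and a site was held in a library when a peak interval there covered more than 200 bp of it. Widths of 200 bp or less, which cannot meet this rule, made up 14.8 to 14.9% of the GR-con lists and 15.3 to 16.2% of the GR-KO lists. The part of this difference in the counts below was not tested. The 133363 sites held by 2 or more libraries were compared, and 575 of them lay in a Zbtb locus. The sequences of 5 sites are given first, 3 of them called by fold ranks, 1 called by -log10 p and 1, in *Zbtb10*, with no overlapping peak in GR-KO, each as 300 bases around the centre of the site, on the plus strand of mm10, read from the RefSeq assembly of that build. Capitals mark TTGGCN, the core letters bound by nuclear factor I (NFI), and AGAACA, the core letters bound by 1 GR subunit, on either strand. The first lies at chr17:34865003-34865302, in an intron of the complement gene *C2* and of the overlapping gene *Gm20547*, 14.3 kb upstream of *Zbtb12* and 2.64 kb from the start of the complement gene *Cfb*. The second lies at chr3:9264931-9265230, with its centre in an exon of *Zbtb10*. The third lies at chr2:181463434-181463733 between genes, 4.16 kb upstream of *Zbtb46*. The fourth and the fifth lie in introns of *Zbtb20*, at chr16:43533532-43533831 and chr16:43537362-43537661, 658 and 662 kb downstream of the gene start.
*Zbtb12* site: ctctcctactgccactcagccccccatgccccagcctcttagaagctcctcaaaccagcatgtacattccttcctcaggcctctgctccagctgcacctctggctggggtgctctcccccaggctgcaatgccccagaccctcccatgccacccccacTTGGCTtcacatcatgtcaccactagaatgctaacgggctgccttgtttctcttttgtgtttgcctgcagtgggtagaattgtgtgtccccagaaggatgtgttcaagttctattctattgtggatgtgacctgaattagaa
*Zbtb10* site: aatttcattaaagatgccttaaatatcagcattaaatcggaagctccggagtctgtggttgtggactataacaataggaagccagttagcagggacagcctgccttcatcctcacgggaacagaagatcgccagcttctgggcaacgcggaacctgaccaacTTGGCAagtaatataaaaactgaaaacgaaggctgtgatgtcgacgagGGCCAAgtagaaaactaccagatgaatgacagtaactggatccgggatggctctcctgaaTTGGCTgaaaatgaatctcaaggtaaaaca
*Zbtb46* site: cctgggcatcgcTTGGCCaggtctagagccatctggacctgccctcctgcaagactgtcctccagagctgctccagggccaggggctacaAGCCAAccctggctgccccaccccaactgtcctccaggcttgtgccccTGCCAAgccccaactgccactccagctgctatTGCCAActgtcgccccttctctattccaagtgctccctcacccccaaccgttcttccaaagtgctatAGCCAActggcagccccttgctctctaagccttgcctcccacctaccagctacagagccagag
*Zbtb20* site at 658 kb: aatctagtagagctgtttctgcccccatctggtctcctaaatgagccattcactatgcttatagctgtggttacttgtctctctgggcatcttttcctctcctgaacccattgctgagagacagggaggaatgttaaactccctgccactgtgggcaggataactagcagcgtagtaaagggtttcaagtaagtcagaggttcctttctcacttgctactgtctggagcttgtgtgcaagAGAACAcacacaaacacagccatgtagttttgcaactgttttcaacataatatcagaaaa
*Zbtb20* site at 662 kb: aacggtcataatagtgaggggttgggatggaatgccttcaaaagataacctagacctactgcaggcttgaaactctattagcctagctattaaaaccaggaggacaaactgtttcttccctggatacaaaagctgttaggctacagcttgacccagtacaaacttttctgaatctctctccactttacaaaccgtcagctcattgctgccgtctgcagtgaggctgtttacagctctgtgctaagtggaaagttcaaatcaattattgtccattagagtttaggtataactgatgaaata
The *Zbtb46* window held 5 NFI cores, the *Zbtb10* window 3 and the *Zbtb12* window 1. The *Zbtb20* window at 658 kb held 1 GR core, and the window at 662 kb held neither. The fourth site called by fold ranks, near *Zbtb9*, lies in an exon of *Phf1* and is not printed, and its 400 bp held 0 NFI and 0 GR cores. These letters are common. The NFI core was in 62.4% of the 575 Zbtb sites and 65.1% of all 133363 sites, and the GR core in 26.1% and 30.0%. The AP-1 motif TGANTCA was in 9.91% and 11%. The hexamer ACTGTA was in 16.0% and 15.3%. The full GR palindrome was in 4 Zbtb sites (0.696%) and 1.01% of all sites, and the full NFI palindrome was in 0 Zbtb sites and 111 of all sites. A match is a description of the letters only. The GC content of the Zbtb sites had a median of 53.0%, against 49.8% for all sites. By position, 31.8% of the Zbtb sites lay within 1 kb of a protein-coding start, 45.6% in introns, 9.91% in exons and 12.7% between genes, against 15.8%, 44.1%, 5.43% and 34.7% of all sites. Each locus was drawn around a gene and its start, and the part of this rule, or of neighbouring genes, in these shares was not tested.

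Zbtb promoters were mostly open in both conditions, and none passed the test for a difference between GR-KO and GR-con. Of the 39 genes, 36 had a peak summit within 1 kb of the gene start in at least 2 libraries (92.3%), against 63.6% of all protein-coding genes, and 35 had it in all 6. Within a library the folds were ranked, the ranks expressed as normal scores, and 13956 promoters compared with limma. By limma with Benjamini-Hochberg adjustment, 0 of the 36 were called in either direction, against 0.0717% lower and 0.0215% higher of all promoters. At an unadjusted p under 0.05, 2 were lower and 1 higher (5.56% and 2.78%, against 5.18% and 4.69% of all promoters). Ranking by -log10 p also called 0 in either direction, against 0.15% lower and 0.043% higher of all promoters, with 2 lower and 0 higher at the unadjusted threshold (against 4.76% and 5.09%). The median score difference was 0.03 over the Zbtb promoters and 0.01 over all promoters.

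The promoter peaks spanned a wide range of folds. The mean over libraries ran from 1.62 for *Zbtb42* to 28.0 for *Zbtb24*, with a median of 15.6 for the 36 genes and 16.0 for all promoters. *Zbtb24*, which is needed for DNA methylation at centromeric repeats, had folds of 28.4, 29.2 and 26.4 in GR-con 1, 2 and 3 and 28.7, 27.8 and 27.1 in GR-KO 1, 2 and 3. The groups overlapped. *Zbtb6* and *Zbtb26* share 1 promoter peak, at 26.0, 25.6 and 26.7 in GR-con and 26.4, 25.2 and 25.6 in GR-KO. *Zbtb49* and *Zbtb38* followed, and the libraries of neighbours in this order overlapped. At the low end, *Zbtb42* had folds of 2.09, 0 and 2.47 in GR-con and 2.65, 2.50 and 0 in GR-KO, where 0 means that no peak was listed. *Zbtb2* stood at 3.93, 3.72 and 4.24 in GR-con and 3.02, 3.85 and 3.73 in GR-KO at its annotated gene start. The strongest peak at any of its annotated transcript starts had a mean fold of 11.5. No library had a peak within 1 kb of the gene start of *Zbtb7a*, *Zbtb12* or *Zbtb32*, so these 3 were not tested there. The strongest peak at any annotated transcript start was 13.7-fold for *Zbtb7a* and 11.4-fold for *Zbtb12* as the mean of 6 libraries, and none was listed for *Zbtb32*, a gene known from lymphocytes.

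The promoters of smallest p were those of *Zbtb40*, *Zbtb43* and *Zbtb22*. *Zbtb40* had folds of 16.0, 16.3 and 14.8 in GR-con and 14.9, 13.9 and 13.2 in GR-KO. The groups overlapped only through GR-con 3 and GR-KO 1. The promoter differed by -0.23 in score, with a standard error of 0.06 and an adjusted p of 0.282 from limma. *Zbtb43* went the other way, with 24.0, 23.3 and 21.7 in GR-con and 24.8, 25.9 and 26.5 in GR-KO. Every GR-KO library was above every GR-con library, and the promoter differed by 0.43 in score, with a standard error of 0.15 and an adjusted p of 0.392 from limma. At *Zbtb22* the folds were 13.9, 14.5 and 14.0 in GR-con and 14.0, 12.1 and 13.0 in GR-KO, overlapping groups, with -0.16 in score, a standard error of 0.06 and an adjusted p of 0.472 from limma. The largest score difference downward was that of *Zbtb49*, at -0.30 (adjusted p = 0.650 from limma), with GR-KO 1 at 26.5 among GR-con values of 24.8, 25.6 and 26.9 and GR-KO 2 and 3 at 23.1 and 23.4. After *Zbtb43*, the highest differences were 0.15 for *Zbtb42* and 0.15 for *Zbtb8b* (adjusted p = 0.861 and 0.743 from limma). By fold, 0 of the 36 promoters had every GR-KO library below every GR-con library and 3 had every one above (0% and 8.33%), against 4.84% and 9.7% of all promoters. By score, 2 of the 36 promoters had every GR-KO library below every GR-con library and 3 had every one above (5.56% and 8.33%), against 6.48% and 9.49% of all promoters.

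**Figure D1:**
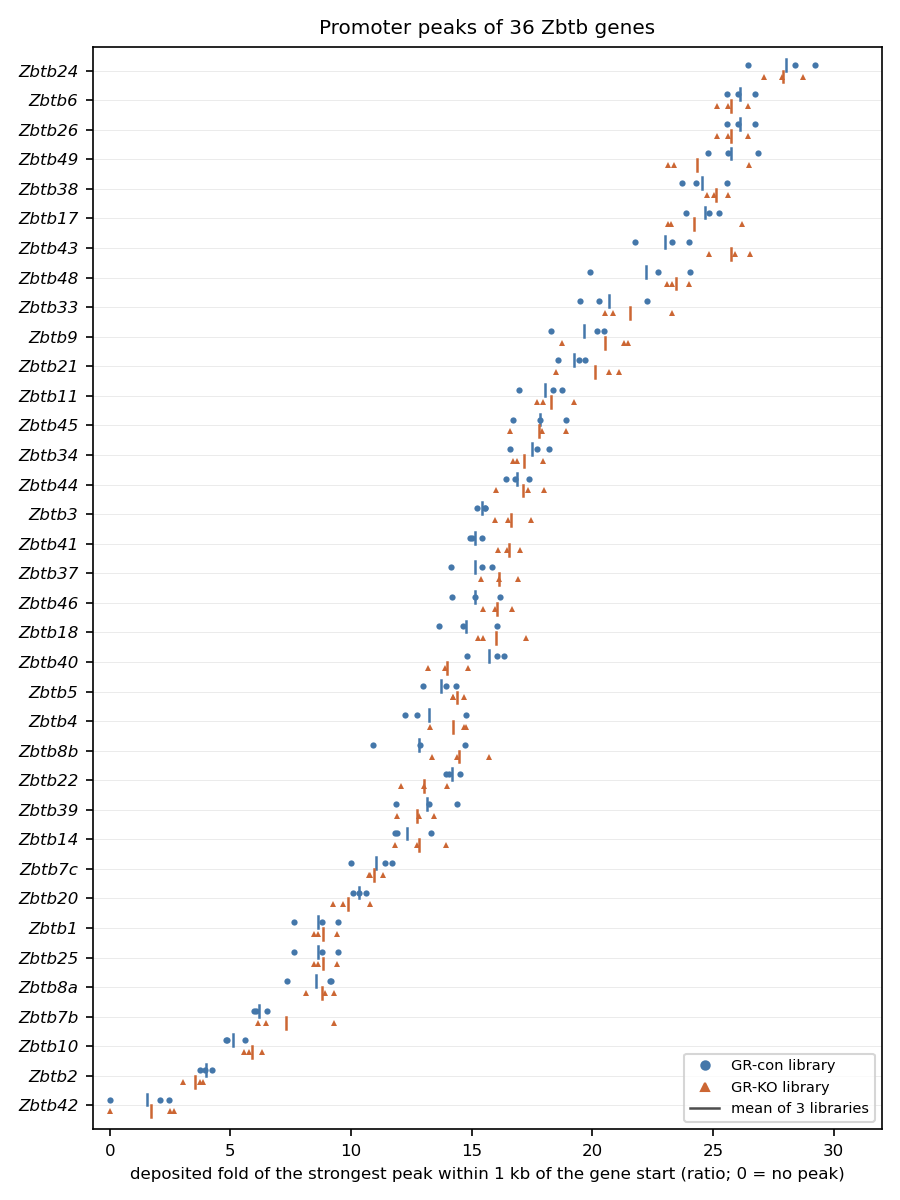
Fold of the strongest peak within 1 kb of the gene start (horizontal axis, ratio over local background, 0 where no peak was listed) for the 36 Zbtb genes tested, with circles for GR-con libraries, triangles for GR-KO libraries and a line at each mean of 3. The genes run from *Zbtb42* at a mean of 1.62 to *Zbtb24* at 28.0, and the libraries of the groups overlap for most genes.

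The number of peaks in a locus also did not pass the test for any member. Peaks per locus, scaled to 100000 listed peaks and taken as log2 with a pseudocount of 0.5, were compared over 18876 genes. By limma with Benjamini-Hochberg adjustment, 0 of 39 loci were called in either direction, and so were 0 of all genes (0%), with the lowest adjusted p of a member at 0.503. At an unadjusted p under 0.05, 1 Zbtb locus was lower and 0 were higher (2.56% and 0%), against 3.72% and 4.51% of all genes. The log2 difference ran from -0.41 to 0.21, with 24 loci above 0 and 15 below, and a median of 0.03 against 0.02 over all genes.

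The locus of smallest p was that of *Zbtb10*, a repressor known to compete with Sp factors for GC-rich DNA. It had 11, 10 and 13 peaks in GR-con 1, 2 and 3 and 8, 7 and 9 in GR-KO 1, 2 and 3. Every GR-KO number was below every GR-con number, and this was the 1 locus of 39 of which that was true before scaling. The log2 difference was -0.41 (standard error 0.13, unadjusted p = 0.0126, adjusted p = 0.503 from limma). After scaling, 1 of the 39 loci had every GR-KO library below every GR-con library and 4 had every one above (2.56% and 10.3%), against 4.4% and 12% of all genes. The loci of *Zbtb43* (14, 12 and 17 against 10, 12 and 12), *Zbtb1* with *Zbtb25* (17, 22 and 21 against 16, 14 and 18) and *Zbtb41* (8, 8 and 10 against 7, 6 and 8) followed, with differences of -0.26, -0.25 and -0.23. In the other direction stood *Zbtb18* (15, 13 and 12 against 19, 16 and 11), *Zbtb7b* (32, 28 and 26 against 28, 35 and 32), *Zbtb24* (15, 14 and 18 against 18, 14 and 20) and *Zbtb6* with *Zbtb26* (15, 13 and 16 against 16, 16 and 16), at 0.21, 0.19, 0.18 and 0.17. The adjusted p was above 0.05 for all of these. *Zbtb14* had 11 peaks in each of the 6 libraries.

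Numbers of peaks followed gene length at the top of the order. *Zbtb20*, a gene of 767 kb, had 175, 188 and 195 peaks in GR-con and 175, 190 and 188 in GR-KO, at percentile 99.98 of all protein-coding genes. *Zbtb7c*, a relative of *Zbtb7a* in a gene of 328 kb, had 68, 60 and 72 in GR-con and 60, 67 and 61 in GR-KO. The other 37 genes are under 100 kb, and per 100 kb of locus *Zbtb20* had 22.7 peaks and *Zbtb7c* 17.1, below the 31 of *Zbtb42* and the 30.2 of *Zbtb7b*. The fewest were at *Zbtb44* (4, 6 and 6 in GR-con and 6, 5 and 6 in GR-KO), *Zbtb8b* (5, 7 and 6 against 8, 5 and 5) and *Zbtb39* (7, 9 and 6 against 6, 10 and 6). Neighbours in this order overlapped in their libraries, apart from *Zbtb20* and *Zbtb7c*, which stood clear of each other and of the rest. The median over the members was 15.5 peaks, against 12.3 for all genes.

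**Figure D2:**
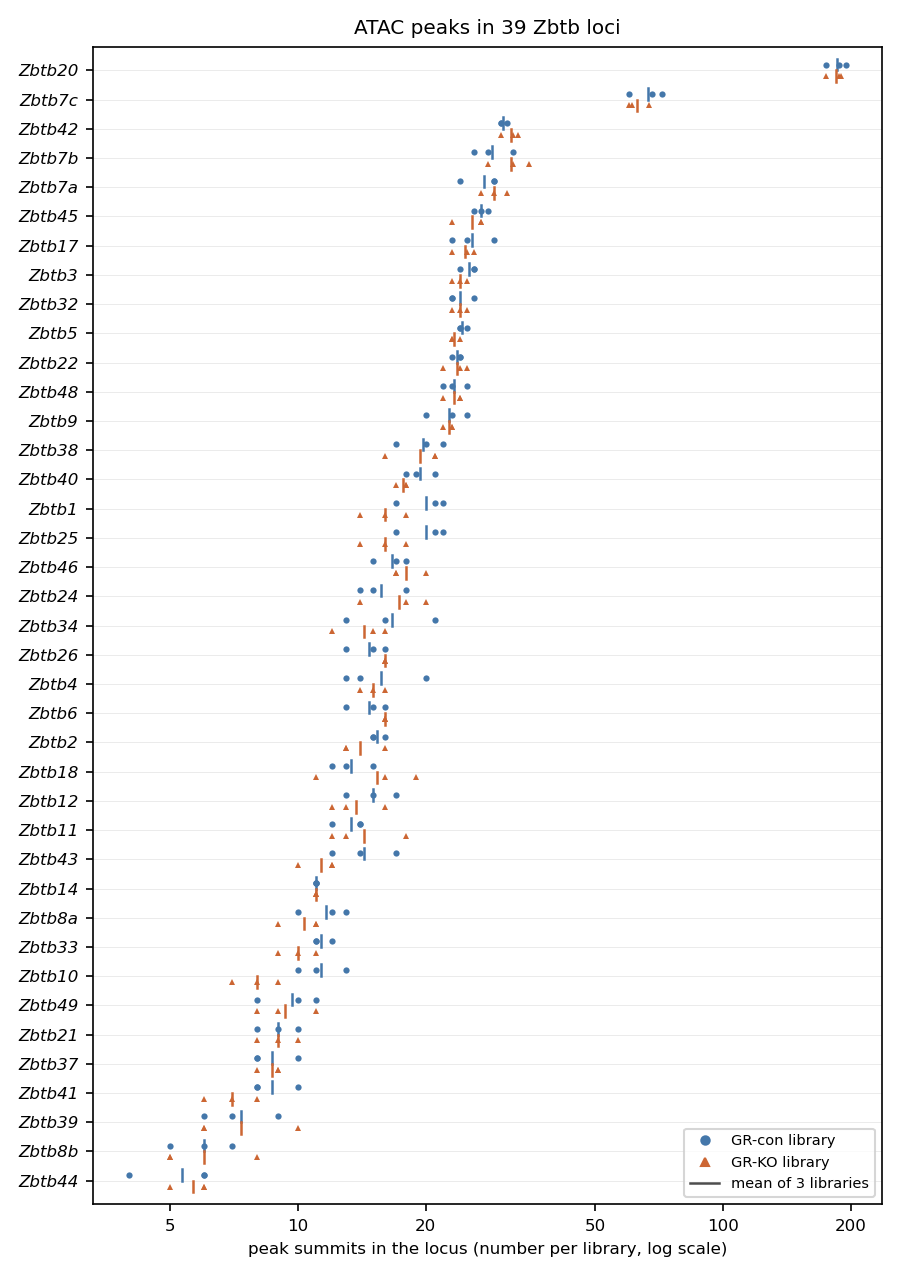
Number of peak summits per library in each of the 39 Zbtb loci (horizontal axis, log scale), with circles for GR-con, triangles for GR-KO and a line at each mean of 3. *Zbtb20* and *Zbtb7c* lie far to the right, *Zbtb10* is the locus with all GR-KO libraries (7 to 9) below all GR-con libraries (10 to 13), and *Zbtb14* sits at 11 throughout.

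Single sites were the level at which a few differences passed the test. A peak was present in all 6 libraries at 387 of the 575 Zbtb sites (67.3%), against 65% of all sites. By fold ranks and limma with Benjamini-Hochberg adjustment, 1 Zbtb site was lower in GR-KO and 3 were higher (0.174% and 0.522%), against 0.333% lower and 0.185% higher of all sites. At an unadjusted p under 0.05, 28 were lower and 39 higher (4.87% and 6.78%), against 5.42% and 6.7% of all sites. A single site is 0.174% of the 575, so these shares rest on 1 site each or on a few. With 1 library left out, 1 to 5 were lower (5 with GR-con 2 out, 3 with GR-KO 3 out and 2 with GR-KO 2 out) and 3 to 5 higher (5 with GR-KO 1 out). The median score difference was 0.04 over the Zbtb sites and 0.03 over all sites. By -log10 p ranks, 4 of 574 Zbtb sites were lower and 5 higher (0.697% and 0.871%), against 0.374% and 0.213%, and at an unadjusted p under 0.05 these were 28 and 45 (4.88% and 7.84%), against 5.61% and 7.42%. Where a library was given instead the fold of a peak with its own summit in the site, 1 of 674 was lower and 0 were higher (0.148% and 0%), against 0.126% and 0.0609%, and at an unadjusted p under 0.05 these were 32 and 27 (4.75% and 4.01%), against 6.01% and 6.12%. The site near *Zbtb12* was called lower by all 3 readings. With replicate number as a block in the fit by fold ranks, 0 Zbtb sites were lower and 1 was higher, that near *Zbtb9*. The *Zbtb12* site then had an adjusted p of 0.22 from limma.

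*Zbtb12* lies among complement genes in the class III region of the major histocompatibility complex. At the site upstream of it, whose sequence is the first above, the peak with its summit in the site reached 7.56, 8.09 and 7.44 in GR-con 1, 2 and 3 and a fold of 1.99 in GR-KO 1, and none was listed in GR-KO 2 and 3. The -log10 p of these peaks was 24.4, 27.3 and 26.1 in GR-con and 2.15 in GR-KO 1, just past the limit of the lists. All GR-con libraries were high, and the peak in GR-KO 1 was 150 bp wide against 433 to 543 bp in GR-con. Over 3 libraries the GR-con mean was 7.70 ± 0.347 (SD), and that of GR-KO, with a missing peak as 0, was 0.662 ± 1.15 (SD). In score the site differed by -1.42 by fold (standard error 0.13, adjusted p = 0.0126), -1.23 by -log10 p (adjusted p = 0.0311) and -1.64 by summit (adjusted p = 0.0360), all from limma. With 1 start taken per gene, 0 of the 10 sites in the *Zbtb12* locus had the start of *Zbtb12* as the nearest protein-coding start. The site cannot be assigned to *Zbtb12* rather than to *C2* or *Cfb* from these data.

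The 3 sites called higher rest on how far a peak interval reached, not on a new summit of that height. At the site 39.6 kb upstream of *Zbtb9*, in an exon of the Polycomb-associated gene *Phf1* and 561 bp from its start, the interval covering the site carried 21, 19.7 and 20.7 in GR-KO, and none covered it in GR-con. In score this site differed by 2.90, with a standard error of 0.09 and an adjusted p of 0.000254 from limma. The strong summit of that interval lay 573 to 579 bp away and was as high in GR-con, at 20.5, 19.1 and 20.9. Its interval was 748 to 803 bp wide in GR-con and 935 to 1006 bp in GR-KO, so only the latter reached more than 200 bp into the site. Summits inside the site itself had folds of 2.38, 1.90 and 2.00 in GR-KO and none in GR-con, and by summit the adjusted p was 0.343 from limma.

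The site 658 kb into *Zbtb20*, the fourth above, had the same form. Intervals over it carried 13.3, 13.4 and 12.8 in GR-KO against 0, 1.86 and 2.32 in GR-con, 1.87 in score with a standard error of 0.14 and an adjusted p of 0.00624 from limma. A summit 670 to 691 bp away had a fold of 11 to 13.4 in all 6 libraries, and its interval grew from 741 to 747 bp in GR-con to 1148 to 1179 bp in GR-KO. Inside the site, the summits were 1.92, 1.86 and 2.32 in GR-con and 3.26, 2.56 and 3.44 in GR-KO. Every GR-KO value was above every GR-con value, but by summit the adjusted p was 0.427 from limma. At *Zbtb46*, known from conventional dendritic cells, the third site above was covered at 7.12, 7.33 and 7.69 in GR-KO and not covered in GR-con, 1.56 in score with a standard error of 0.13 and an adjusted p of 0.0105 from limma. The summit 402 to 413 bp away had a fold of 6.54 to 7.69 in all 6 libraries. Summits inside the site were 2.88 and 2.69 in GR-KO 1 and 2 and absent from GR-KO 3 and from GR-con, with an adjusted p of 0.440 by summit from limma.

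**Figure D3:**
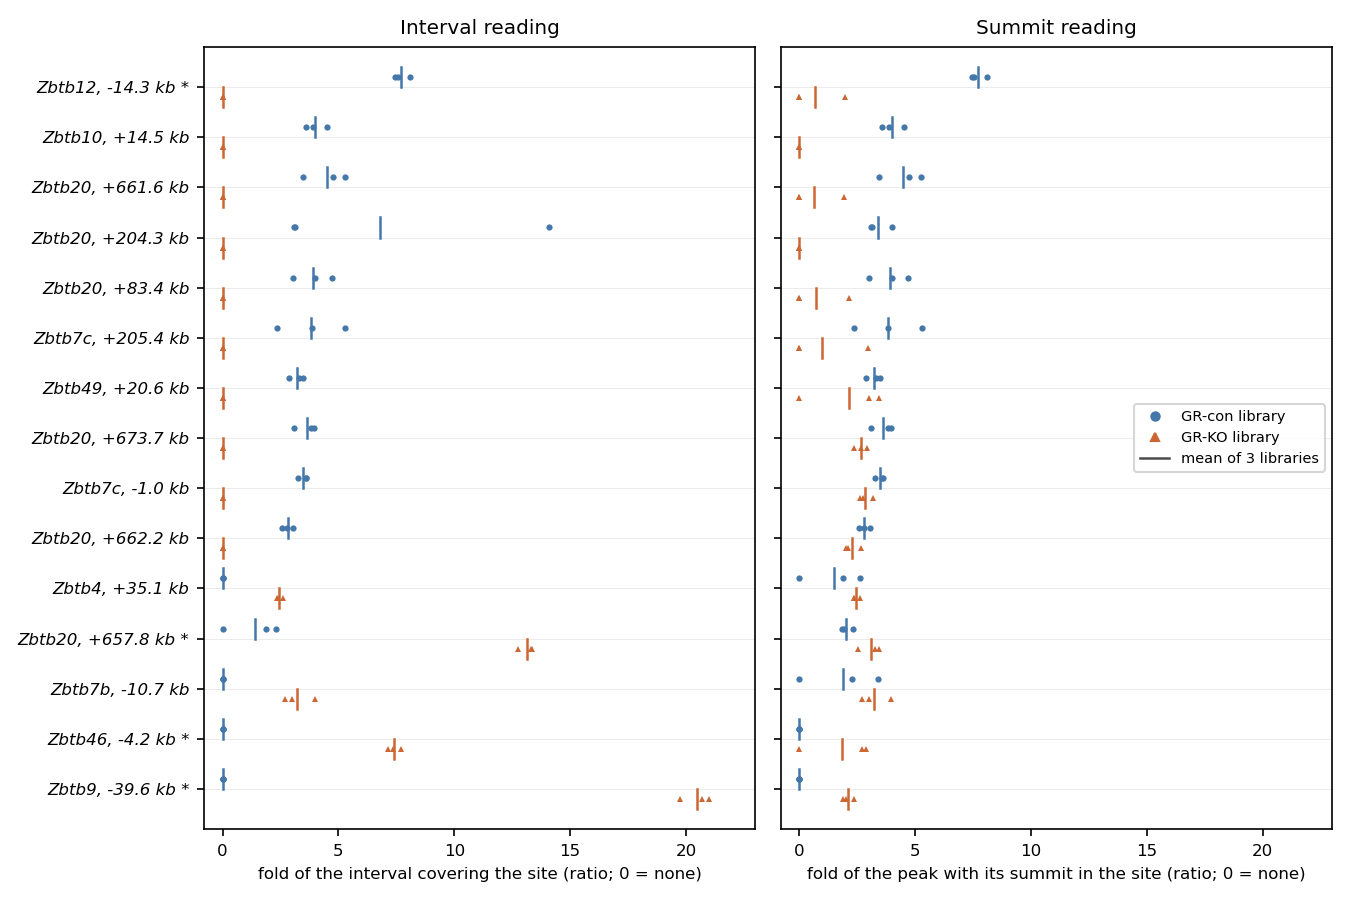
The 15 Zbtb sites that were called by fold ranks (star) or held in every library of 1 condition and in none of the other, labelled by gene and distance from its start in kb. The left panel gives the fold of the interval covering the site and the right panel the fold of the peak with its summit there (ratio, 0 where none, circles GR-con, triangles GR-KO, lines means of 3), and the folds of 12.8 to 21 on the left at *Zbtb20* and *Zbtb9* are 1.90 to 3.44 on the right, while at *Zbtb12* the GR-con libraries stand at 7.44 to 8.09 in both panels, above every GR-KO library.

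Presence was also read directly. At 10 Zbtb sites a peak covered more than 200 bp in all 3 GR-con libraries but in 0 GR-KO libraries (1.74%, against 1.31% of all sites), and at 4 in all 3 GR-KO libraries but in 0 GR-con libraries (0.696%, against 0.517%). By any overlap of at least 1 bp these were 6 and 3 of 693 (0.866% and 0.433%), against 1.1% and 0.554%. These shares lay near those of all sites. With 1 library left out, fewer libraries have to match, and the 10 sites became 12 to 22 (22 with GR-KO 3 out, 18 with GR-con 2 out and 16 with GR-con 1 out) and the 4 became 5 to 11 (11 with GR-KO 1 out, 9 with GR-KO 2 out and 7 with GR-con 1 or GR-KO 3 out). Of the 10, 5 were in *Zbtb20* and 2 in *Zbtb7c*, and the others were at *Zbtb12*, *Zbtb10* and *Zbtb49*. The 4 were at *Zbtb4*, *Zbtb7b*, *Zbtb9* and *Zbtb46*. At 9 of the 10 and at 4 of the 4, a narrower or displaced peak still overlapped the site in at least 1 library of the other condition. The 1 exception was the site in *Zbtb10*. A peak in all libraries of 1 condition with no overlap at all in the other was found at 0.329% of all sites for GR-con and 0.105% for GR-KO, and at 1 (0.174%) and 0 (0%) of the 575 Zbtb sites.

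The *Zbtb10* site had folds of 3.59, 4.52 and 3.89 in GR-con 1, 2 and 3, with -log10 p of 6.83, 10.4 and 8.54 and widths of 208 to 242 bp. No peak overlapped it in GR-KO 1, 2 or 3. The score difference of -0.76 did not pass (standard error 0.15, adjusted p = 0.137 by fold and 0.0889 by summit, both from limma). It lay in the same locus whose number of peaks was lower in every GR-KO library, and its loss is 1 of the peaks counted there. The promoter of *Zbtb10* did not follow, with folds of 4.87, 5.60 and 4.82 in GR-con and 5.78, 6.30 and 5.54 in GR-KO (adjusted p = 0.571 from limma).

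Counted by summit, 8 Zbtb sites were occupied in all 3 GR-con libraries but in 0 GR-KO libraries, and 4 the reverse (1.19% and 0.593% of 674, against 1.15% and 0.618% of all sites). Their folds were low, from 1.97 to 4.52 with a median of 3.13 in the former and from 1.90 to 5.16 with a median of 2.89 in the latter, and none passed the test by summit (adjusted p = 0.0889 to 0.433 and 0.0899 to 0.343 from limma). *Zbtb17*, which encodes the MYC partner MIZ1, held 3 of the 12. A summit 17.1 kb upstream of its start had folds of 3.25, 2.89 and 2.58 in GR-con only, one 14.4 kb downstream 3.12, 3.49 and 2.75 in GR-con only, and one 10.2 kb downstream 2.89, 3.60 and 2.99 in GR-KO only. Summits listed in 1 condition only thus lay in both directions at this locus, none past the test. The other loci with such summits were *Zbtb20*, *Zbtb7c*, *Zbtb10*, *Zbtb21*, *Zbtb40* and *Zbtb9*.

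By role, no group of members had a promoter or a number of peaks that passed the test, and by fold ranks sites passed at 0 or 1 per direction in each group. The shares over all sites, against which each group is read, were 0.333% lower, 0.185% higher, 1.31% held in GR-con only and 0.517% held in GR-KO only. A single site was between 0.368% of a group, with 272 sites, and 3.03%, with 33 sites. By -log10 p ranks, 2 sites were lower and 1 higher in the neural and glial group, 0 and 1 in the blood and immune group, 2 and 3 among the remaining members, and 0 in the others, against 0.374% lower and 0.213% higher of all sites by that ranking. The methyl-CpG binding members *Zbtb4*, *Zbtb33* (Kaiso) and *Zbtb38* had 33 sites, with 0 called and 1 held in GR-KO only (3.03%, against 0.517%). That site, near the start of *Fgf11*, had summits of 2.62, 2.35 and 2.38 in GR-KO and of 1.87, 0 and 2.61 in GR-con, where 0 means none listed. Their promoters were at 12.7, 14.8 and 12.2 in GR-con against 14.7, 14.8 and 13.3 in GR-KO for *Zbtb4*, at 22.3, 20.3 and 19.5 against 20.5, 20.9 and 23.3 for *Zbtb33*, and at 25.6, 24.3 and 23.7 against 25.0, 25.6 and 24.7 for *Zbtb38*. The groups overlapped for each. Among all sites of the members, the highest mean fold was 29.3, at a site 6.43 kb from the start of *Zbtb38* and at one 41.1 kb from that of *Zbtb2*.

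The members known from neural and glial development, *Zbtb18*, *Zbtb20* and *Zbtb45*, had 153 sites, with 0 lower and 1 higher, the latter the *Zbtb20* site at 658 kb, and 5 held in GR-con only, all in *Zbtb20* (3.27%, against 1.31%). The single higher call was 0.654% of the group, against 0.185%. The 2 sites of this group that were lower by -log10 p are also in *Zbtb20*. The *Zbtb18* promoter, the strongest site of its locus, had folds of 14.6, 16.0 and 13.6 in GR-con and 17.3, 15.4 and 15.3 in GR-KO. *Zbtb45*, linked to glial differentiation, had 17.8, 18.9 and 16.7 in GR-con and 16.6, 18.9 and 17.9 in GR-KO. Neither passed the test (adjusted p = 0.683 and 0.927 from limma).

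Of the blood and immune lineage members, *Zbtb7b* directs CD4 T cells, *Zbtb7a* B cell and erythroid fate, *Zbtb46* marks conventional dendritic cells, *Zbtb1* is needed for lymphocytes and *Zbtb32* restrains lymphocyte activation. Their 87 sites held 0 lower and 1 higher, the *Zbtb46* site, with 0 in GR-con only and 2 in GR-KO only. These were 1.15% higher and 2.30% in GR-KO only, against 0.185% and 0.517%. The second of these, 10.7 kb upstream of *Zbtb7b* in an intron of *Flad1*, had summits of 2.71, 3.98 and 2.99 in GR-KO and of 3.40, 2.26 and 0 in GR-con. The promoter of *Zbtb7b* stood at 5.98, 6.04 and 6.53 in GR-con and 6.13, 6.49 and 9.30 in GR-KO, where GR-KO 3 stood above the rest. That of *Zbtb46* stood at 16.2, 15.1 and 14.2 against 16.0, 16.7 and 15.5, and that of *Zbtb1* at 8.79, 9.45 and 7.63 against 8.64, 8.46 and 9.42. The genome maintenance and growth members *Zbtb17*, *Zbtb24* and *Zbtb48*, the last a telomere binder, had 44 sites with 0 called and 0 held in 1 condition only. The promoter of *Zbtb17* had folds of 23.9, 24.8 and 25.2 in GR-con and 26.2, 23.2 and 23.2 in GR-KO, and that of *Zbtb48* had 22.7, 24.1 and 19.9 against 24.0, 23.1 and 23.3. The remaining 25 members had 272 sites with 1 lower and 1 higher (0.368% each, against 0.333% and 0.185%), 5 held in GR-con only and 1 in GR-KO only (1.84% and 0.368%, against 1.31% and 0.517%). The 14 sites shared by *Zbtb1* and *Zbtb25* count in 2 of these groups.

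*Zbtb20* held 129 of the 575 sites, and 68 of them had a peak in all 6 libraries (52.7%, against 65% of all sites). The 5 sites held in GR-con only were 3.88% of the 129, against 1.31% of all sites. The median fold of the *Zbtb20* sites was 3.92, against 5.77 for all sites. The locus has 19 annotated transcript starts, and 15 sites lay within 1 kb of one, with a median fold of 4.68 against 3.87 for the other sites. A mean fold above 10 was seen at 19 sites. The strongest, 71.3 kb into the gene and away from any annotated start, had folds of 24.6, 26.4 and 21.8 in GR-con 1, 2 and 3 and 24.0, 20.3 and 22.8 in GR-KO 1, 2 and 3. The next, at 255 kb, had 19.1, 22.2 and 18.1 against 22.2, 19.2 and 19.1. The groups overlapped at both (adjusted p = 0.581 and 0.932 from limma). The sites were densest at the 3′ end of the gene, with 53 from 600 to 770 kb (31.2 per 100 kb) against 24, 23 and 27 in the 3 stretches of 200 kb before it.

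The gene start of *Zbtb20* did not stand out, at 10.3, 10.1 and 10.6 in GR-con and 10.8, 9.64 and 9.24 in GR-KO. An internal start 488 kb downstream did stand lower in GR-KO by rank, without passing the test. The peak 29 bp from it had folds of 17.7, 17.8 and 16.1 in GR-con and 13.9, 15.1 and 13.6 in GR-KO, and -log10 p of 315, 345 and 263 against 141, 190 and 143. Every GR-KO library was below every GR-con library on both scales. As a site it differed by -0.29 in score (standard error 0.06, adjusted p = 0.155 by fold and 0.0622 by -log10 p, both from limma). When promoters were read at any annotated transcript start, this peak stood for *Zbtb20*, with a score difference of -0.40 (standard error 0.08, unadjusted p = 0.000416, adjusted p = 0.0944 from limma), the smallest p of the 38 members that could be read that way. Among all 14982 genes so read, 15 were called lower and 9 higher.

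The 3′ stretch of *Zbtb20* held sites that stood lower and others that stood higher within 20 kb. At 662 kb, the fifth above, the summit had folds of 4.75, 5.26 and 3.45 in GR-con and 1.94 in GR-KO 1, with none in GR-KO 2 and 3. The -log10 p was 69.5, 90.9 and 35.2 in GR-con and 8.33 in GR-KO 1. The site was called by -log10 p (score difference -1.66, adjusted p = 0.0203 from limma) and not by fold (-0.86, adjusted p = 0.141) or by summit (-1.11, adjusted p = 0.123). The adjacent site, also at 662 kb, was called by -log10 p as well (adjusted p = 0.0486 from limma), yet every GR-KO library had a summit there, at 2.69, 2.10 and 2.03 against 2.58, 3.04 and 2.78 in GR-con, in intervals of 150 to 180 bp that could not cover more than 200 bp. At 671 kb the summit stood higher in GR-KO, at 5.73, 8.07 and 6.03, than in GR-con 1 and 2, at 3.58 and 3.80, with none of its own in GR-con 3 (score difference 0.58, adjusted p = 0.153 by fold from limma). At 674 kb it was 3.96, 3.09 and 3.81 in GR-con and 2.66, 2.36 and 2.94 in GR-KO (adjusted p = 0.193 by fold from limma), again with GR-KO intervals under 200 bp. Nearer the start, a site at 83.4 kb had 3.02, 4.70 and 3.98 in GR-con and 2.17 in GR-KO 1 only, and one at 204 kb had 3.13, 4.00 and 3.08 in GR-con and no summit in GR-KO.

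**Figure D4:**
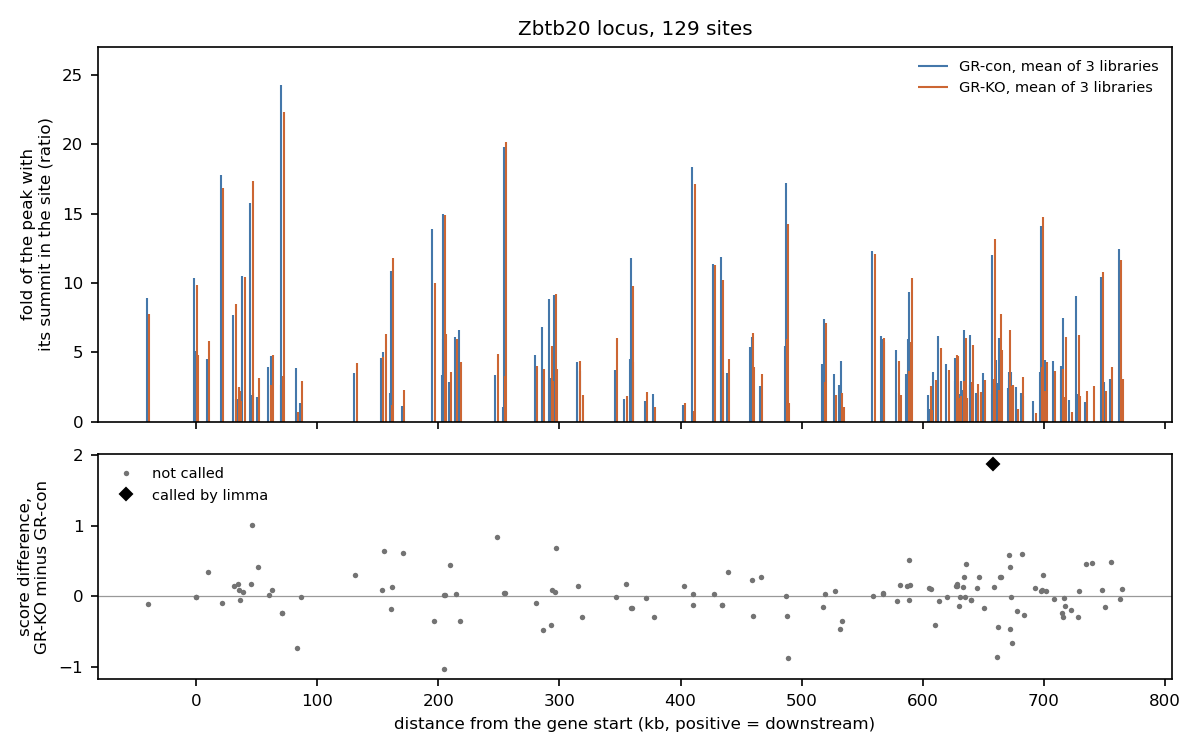
The 129 *Zbtb20* sites by distance from the gene start in kb, with the mean fold of the peak whose summit lies in the site for GR-con and GR-KO (upper panel, ratio, libraries without a summit counted as 0) and the score difference, GR-KO minus GR-con (lower panel, no unit). The strongest site at 71.3 kb is similar in both groups, and the diamond at 658 kb is the 1 site called by fold ranks.

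*Zbtb7c* had 53 sites, 31 of them in all 6 libraries (58.5%, against 65%), with 0 called by fold and 2 held in GR-con only (3.77%, against 1.31%). The one 954 bp upstream of the start had summits of 3.61, 3.58 and 3.26 in GR-con and 2.63, 2.77 and 3.17 in GR-KO, so it was present in every library, in intervals of 208 to 213 bp and of 161 to 197 bp. It was called by -log10 p of covering intervals (adjusted p = 0.0286 from limma) and not by summit (adjusted p = 0.693). The other, at 205 kb, had 5.28, 3.85 and 2.36 in GR-con and 2.99 in GR-KO 3 alone. A strong peak 72.1 kb into the gene stood higher in GR-KO by -log10 p (score difference 0.29, adjusted p = 0.0494 from limma), with folds of 17.9, 17.1 and 16.7 in GR-con and 19.6, 20.1 and 19.1 in GR-KO. Every GR-KO library was above every GR-con library, and by fold the adjusted p was 0.174. The neighbouring site at 72.5 kb took the value of the same interval. A summit at 319 kb appeared in GR-KO only, at 2.92, 5.16 and 4.49 (adjusted p = 0.0899 by summit from limma), and one at 250 kb in GR-con only, at 3.97, 3.2 and 3.21 (adjusted p = 0.132). The promoter of *Zbtb7c* had 11.7, 11.4 and 9.98 in GR-con and 11.3, 10.7 and 10.8 in GR-KO.

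The strongest site of a locus was often not that of the Zbtb gene itself. In 23 of 39 loci its nearest protein-coding start belonged to another gene, as at *Zbtb41*, where a site of 27.2-fold lay at *Aspm*, or *Zbtb11*, where one of 24.4-fold lay at *Rpl24*. Over all 575 sites, 42.4% had a Zbtb start as the nearest one. Here 1 start was taken per gene, so internal starts did not count. By this rule 49 of the 129 *Zbtb20* sites were nearest to the *Zbtb20* start. The 23 loci include *Zbtb26*, whose strongest site lay 0.086 kb from its own start and nearer to that of *Zbtb6*. By score, 32 Zbtb sites had every GR-KO library below every GR-con library and 94 had every one above (5.57% and 16.3%), against 7.26% and 13.1% of all sites.

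BTB zinc-finger genes named otherwise (*Bcl6*, *Bcl6b*, *Hic1*, *Hic2*, *Mynn*, *Patz1*, *Gzf1* and *Zfp131*) were read the same way. Their 110 sites held 0 called by fold ranks in either direction, 1 in GR-con only and 0 in GR-KO only. All sites gave 0.333% lower and 0.185% higher, 1.31% in GR-con only against 0.909% here, and 0.517% in GR-KO only. All 8 had a promoter peak in all 6 libraries, with a median fold of 12.9. Of these promoters 0 were called, against 0.0717% lower and 0.0215% higher of all promoters. Exchanging libraries between groups of 3 and 3 gives no exact permutation p under 0.1, so calls here depend on the spread shared across features by limma, and p-values measure the spread between pooled samples.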

How the data were processed

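The authors sorted nuclei, made ATAC-seq libraries and ran the ENCODE pipeline for ATAC-seq (mm10, peak p threshold 0.01), with peaks called per library. Each deposited list gives a capped score per peak, a fold (a ratio over the local background), the -log10 of the p-value and of the q-value, and a summit. Several summits can share an interval. No read counts were used here, so the count test of the study was not repeated and depth is unknown. Ranks set the lists on 1 scale within a library only. Per site, locus and promoter, normal scores of the ranks (for loci, log2 peak numbers) entered limma 3.58.1 (R 4.3.3, trended prior, unblocked), adjusted by Benjamini-Hochberg at 0.05. The fits were tested on simulated data. Python 3.11.15, pysam 0.24.0 and GENCODE M21 were used. The members, gene lists and rules were chosen with earlier results of these data known. Named were genes with a called or presence-only site, the 5 sites of smallest p, the extremes of peak number and promoter score in each direction, and 4 role groups. A count of zinc fingers per protein was planned and not run, as no protein sequences were used here. A further gene list is not reported here.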

Additional observations from a re-analysis of the deposited data

How the results depend on the processing

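The 0 calls among Zbtb promoters and numbers of peaks per locus held in every alternative run. Site counts rested on few sites. By fold ranks, 1 Zbtb site was lower and 3 were higher. By -log10 p these were 4 and 5, with an overlap of at least 1 bp 0 were higher, by summit 0 were higher, within 10 kb of the start 0 were lower, and within 100 kb 2 were lower. Leaving out each library in turn gave 1 to 5 lower and 3 to 5 higher, with 5 lower when GR-con 2 was out, 3 with GR-KO 3 out and 2 with GR-KO 2 out, and 5 higher with GR-KO 1 out. Sites held in GR-con only (10) became 6 with an overlap of at least 1 bp and 12 to 22 when a library was left out, 22 with GR-KO 3 out, 18 with GR-con 2 out and 16 with GR-con 1 out. Sites held in GR-KO only (4) became 1 within 10 kb and 5 to 11 when a library was left out, 11 with GR-KO 1 out, 9 with GR-KO 2 out and 7 with GR-con 1 or GR-KO 3 out. Such sets grow because fewer libraries must match. Asking for no overlapping peak in the other condition, chosen after seeing the data, left 1 and 0. With the replicate block, 0 Zbtb sites were lower and 1 was higher (*Zbtb9*). Adjusted p values for the *Zbtb12*, *Zbtb20* and *Zbtb46* sites were then 0.22, 0.129 and 0.21 from limma. The pairing check gave correlations of 0.0516, -0.0199 and 0.0304 for same-numbered libraries and of -0.075 to 0.0476 for the other pairs. It does not settle whether the block was needed. The block changed no call of promoters or peak numbers. The *Zbtb12* site passed under every other alternative that kept it (adjusted p = 0.00824 to 0.0469 from limma). The site near *Zbtb46* gave no value with GR-KO 1 out. The *Zbtb9*, *Zbtb20* and *Zbtb46* sites did not pass with an overlap of at least 1 bp (0.951, 0.594 and 0.593) or by summit. Log2 differences of peak number that turned sign, none past the test, were *Zbtb43* (0.0804 within 10 kb), *Zbtb18* (-0.0437 within 10 kb), and *Zbtb24* (-0.13) and *Zbtb7b* (-0.0595) with intervals counted once. Depth was unknown, so a missing peak may be a peak under the threshold of its list.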
